A study of Mus musculus with 4 samples.

Results

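The immunoglobulin heavy chain variable segments (Ighv) are the tandem gene pieces from which a B cell chooses 1 to build the antigen-binding end of an antibody heavy chain. Members were all RefSeq genes on mouse chromosome 12 whose symbol starts with Ighv, 183 in all, of which 120 are annotated as V segments and 63 as V segment pseudogenes. They are 183 of the 49603 RefSeq genes used. They span chromosome 12 from 113572929 to 116009954 (mm10), or 2.44 Mb. CTCF was profiled by chromatin immunoprecipitation and sequencing (ChIP-seq) in whole mouse testes (F1 animals, B6xCAST), with 2 immunoprecipitated and 2 input samples. No age, genotype or treatment beyond the cross is stated, and all samples share it. The tissue was not sorted, so germ cells and testis somatic cells contribute together. Testis is not a site of V(D)J recombination, and the locus is described here as a stretch of CTCF-bound chromatin and not as an active antigen receptor gene. The values come from 1 merged peak list of 51871 peaks, with no value per sample, so no spread between replicates can be given, no difference was tested, and the read depth is unknown.

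During V(D)J recombination the RAG nuclease joins a D to a J segment and then a V segment to the joined DJ. It cuts at recombination signal sequences, which lie directly beyond the 3′ end of each V segment. CTCF and cohesin fold the locus so that far V segments can come near the DJ end, and CTCF sites in the locus can stop a chromatin loop as it is extruded. All mouse Ighv segments are read from the reverse strand, so the signal end of a segment is its lower coordinate and the promoter end its higher coordinate. The V segments nearest the D segments belong mainly to families 5 and 2 (the latter also called Q52). Those farthest away belong to families 1 (J558) and 8. The 12 other families lie mostly between them and are called middle families here.

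CTCF summits, the highest point of each peak, were found within 1 kb of an annotated end of 36 of the 183 members (19.7%). Each of the 36 had a summit of its own, since no summit lay within 1 kb of more than 1 member. For comparison, 39.1% of protein-coding genes and 24.3% of all RefSeq genes on the autosomes and X had a summit within 1 kb of an end. Those genes are mostly longer than a V segment. Among the 2308 other RefSeq genes as short as the members (277 to 582 bp), 9.32% had one. Only the Ighv members were left out of that set, so segments of other antigen receptor loci were not removed. The 36 were spread unevenly along the locus, with 28 among the 75 proximal and middle members and 8 among the 108 members of families 1 and 8.

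**Figure D1:**
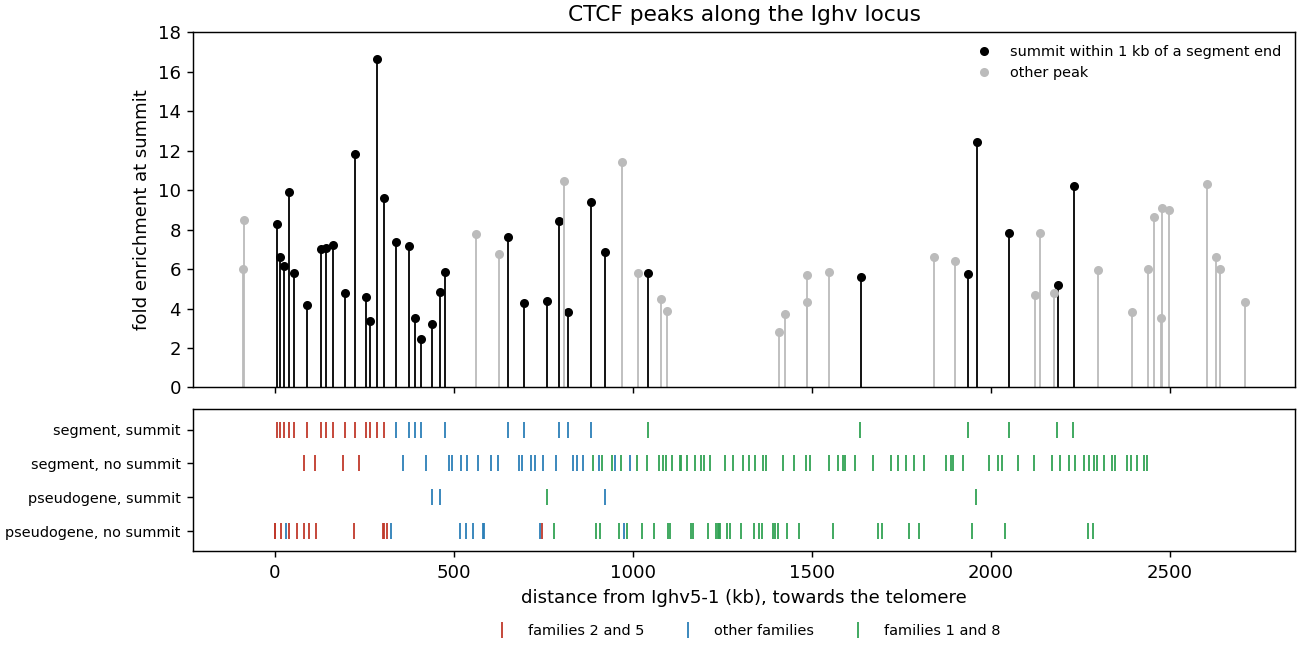
Upper panel: fold enrichment at the summit (vertical axis) of the 66 CTCF peaks of the locus against distance from Ighv5-1 in kb (horizontal axis), black where the summit lies within 1 kb of a segment end and grey elsewhere. Lower panel: the 183 members by annotation and by presence of a summit, coloured by family group; the 36 with a summit crowd the left side, and a stretch of 313 kb near the middle has no peak.

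The proximal families carried the highest share. Of 32 members of families 5 and 2, 15 had a summit within 1 kb (46.9%), and all 15 are annotated as V segments. Counted by annotation, 15 of the 19 V segments of these families had a summit (78.9%), and 0 of their 13 pseudogenes did. In family 5 this was 9 of 10 V segments and 0 of 11 pseudogenes, and in family 2 it was 6 of 9 and 0 of 2. The V segments without a summit were Ighv5-12-4, Ighv2-4, Ighv2-5 and Ighv2-7, whose nearest summits lay 7.46, 8.34, 16.3 and 11.2 kb away. For 12 of the 13 pseudogenes the nearest summit was the one at a V segment of these families. Ighv2-8, for example, lies 1.40 kb from the summit of Ighv2-9, and Ighv5-13 lies 1.72 kb from that of Ighv2-6-8. How well reads can be placed at each member of such similar sequences was not tested.

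Ighv5-17 (chromosome 12, 113859149 to 113859442) had the strongest peak of the locus. Its fold enrichment over background, as the authors' peak caller gave it, was 16.6 with a −log10 q of 84.4, and the summit lay 44 bp beyond the signal end. Ighv2-6-8 followed among the proximal members, at a fold of 11.85 (−log10 q 73.8), with its summit 58 bp beyond the signal end. Ighv2-3 (fold 9.88) and Ighv2-9 (fold 9.59) had summits 76 and 41 bp beyond that end. Ighv5-2, the V segment closest to the D segments, had a fold of 8.29 and a summit at 52 bp. The most proximal member of all, Ighv5-1 (113572929 to 113573222), is a pseudogene with no summit within 1 kb; the nearest, 5.23 kb away, is that of Ighv5-2. The weakest proximal peak was at Ighv5-16, at a fold of 3.35 (−log10 q 5.43), and the 15 peaks had a median fold of 6.99.

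At the proximal and middle members the summits sat just past the signal end. Of 28 such members with a summit, 25 had it outside the segment on the signal side, 16 to 163 bp from the end, 3 had it inside the segment and 0 had it on the promoter side. The 3 inside were Ighv5-4 (fold 6.13), Ighv2-9-1 (4.80) and Ighv5-9 (4.20). In Ighv5-4 the summit lay 1 bp from the promoter end, and in Ighv2-9-1 and Ighv5-9 it lay 146 and 147 bp inside the signal end. Over all 36 members with a summit, 27 had it on the signal side, 24 of them within 100 bp and with a median of 58 bp. The narrow band just below 0 in the plot of summit position holds members of 10 families, from Ighv5 and Ighv2 through Ighv3, Ighv4, Ighv6 and Ighv7 to Ighv10, Ighv11, Ighv12 and Ighv13, together with 1 member of Ighv8. The peak interval covered the signal end itself at 25 of the 28 proximal and middle members.

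**Figure D2:**
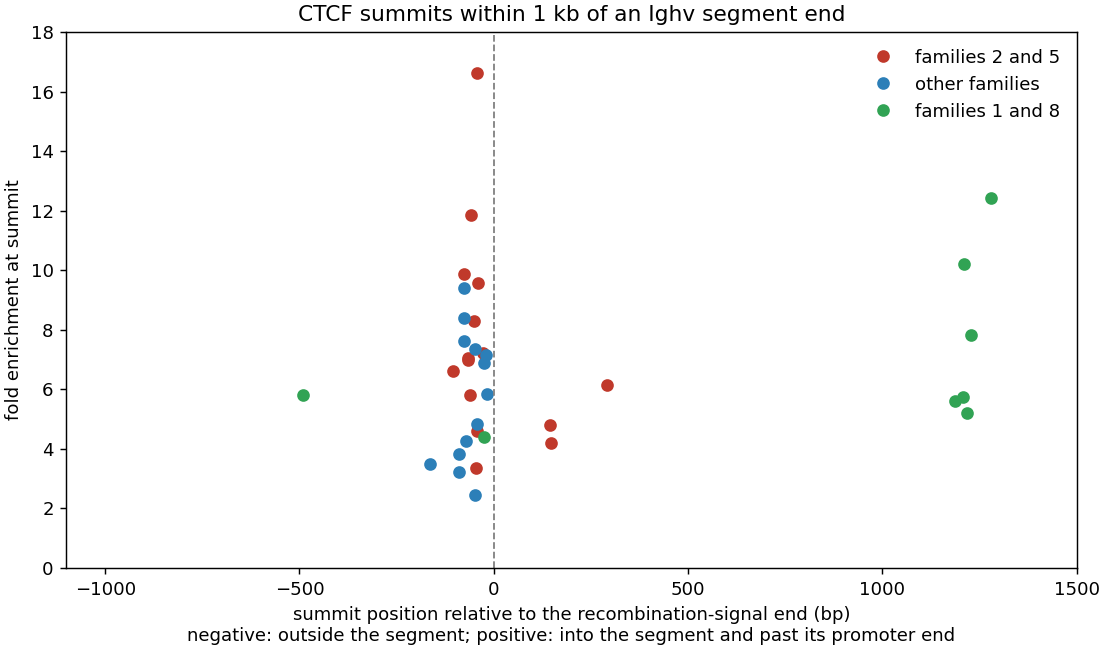
Position of the summit relative to the recombination-signal end in bp (horizontal axis, dashed line at the end, negative outside the segment) against fold enrichment at the summit (vertical axis) for the 36 members with a summit within 1 kb; each point is 1 member, coloured by family group. Proximal and middle members lie from 163 bp outside to the inside of the segment, and 6 members of family 1 lie 1188 to 1279 bp above the signal end.

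The middle families were divided among themselves. Of 43 members, 13 had a summit (30.2%), comprising 10 of 31 V segments (32.3%) and 3 of 12 pseudogenes. Both members of family 4 and both of family 11 had one, as did 2 of 4 in family 7, 2 of 7 in family 6, 2 of 8 in family 3, and 1 member each of families 10, 12 and 13. Families 9, 14, 15 and 16 had none, 11 members in all. Unlike in the proximal families, pseudogenes were among those with a summit, namely Ighv10-2 (fold 6.88, 26 bp beyond the signal end), Ighv3-2 (4.83, 42 bp) and Ighv4-2 (3.22, 90 bp). The strongest middle peaks were at Ighv6-7 with a fold of 9.40, Ighv12-3 with 8.41, Ighv7-4 with 7.64 and Ighv7-2 with 7.36. The summits of Ighv6-7, Ighv12-3 and Ighv7-4 each lay 76 bp beyond the signal end, the same distance as at Ighv2-3.

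Other middle members had lower folds. Ighv4-1 had 7.16, Ighv11-2 had 5.85, Ighv13-1 had 4.27, Ighv6-3 had 3.82, Ighv3-1 had 3.51 and Ighv11-1 had 2.45. The middle median was 5.85 (range 2.45 to 9.40), against a proximal range of 3.35 to 16.6, so the ranges overlapped in part. Ighv11-1 and Ighv4-2 lay below the lowest proximal fold, and Ighv5-17, Ighv2-6-8, Ighv2-3 and Ighv2-9 lay above the highest middle fold. Low fold did not always go with low confidence. Ighv11-1 had the lowest fold of the locus, but a −log10 q of 17.7 and a peak 1400 bp wide, while Ighv13-1 had a higher fold, a −log10 q of 6.28 and a width of 234 bp. Peaks at least 1 kb wide were found at 7 members, and 4 of these, Ighv4-1, Ighv11-1, Ighv4-2 and Ighv11-2, are middle members close together between 113948284 and 114048704. The other 3 were Ighv2-6, Ighv5-17 and Ighv1-12. Peaks of this width made up 16.6% of the whole list, and the median width at members, 530 bp, was close to the 529 bp of all peaks.

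**Figure D3:**
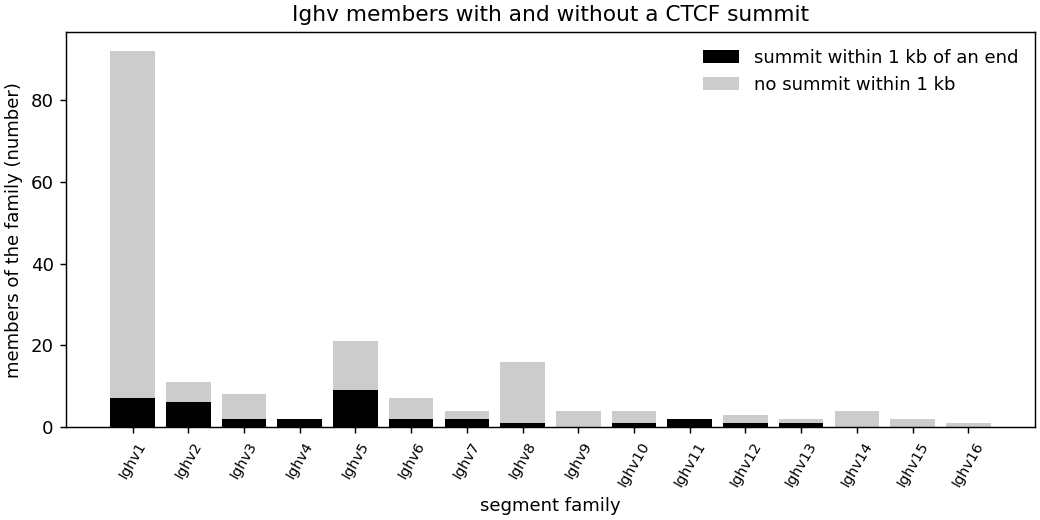
Number of members (vertical axis) in each of the 16 segment families (horizontal axis), split into those with (black) and without (grey) a CTCF summit within 1 kb of an end. Family 1 holds 92 members, 7 with a summit, whereas families 5 and 2 together hold 32, 15 with a summit.

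The distal families 1 and 8 had a smaller share of members with a summit than the proximal and middle families, and these summits lay elsewhere. Of 108 members, 8 had a summit within 1 kb (7.41%), 7 of 92 in family 1 and 1 of 16 in family 8. By annotation they were 6 of 70 V segments (8.57%) and 2 of 38 pseudogenes. The shares of 7.41% and 8.57% were close to the 9.32% of other RefSeq genes as short as the members. The single family 8 member was the pseudogene Ighv8-1 (fold 4.40), whose summit lay 26 bp beyond the signal end. It lies at 114332796 to 114333086, among the middle families. Ighv1-12 had a summit 490 bp beyond its signal end, with a fold of 5.82.

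The remaining 6 all had the summit on the promoter side, at a similar distance. Ighv1-65, a pseudogene, had the highest fold of them, 12.4, with a −log10 q of 47.2. Ighv1-74 had a fold of 10.2, Ighv1-69 had 7.84, Ighv1-64 had 5.74, Ighv1-55 had 5.61 and Ighv1-72 had 5.20. Measured from the promoter end these summits lay 798 to 987 bp away. Some annotated segments include the leader exon and others do not, so the promoter end is not the same feature in each. Measured from the signal end, the distances were 1188, 1208, 1210, 1218, 1227 and 1279 bp, a narrower range. The 1 kb limit falls close to this group: Ighv1-65 was the last member inside it, at 987 bp, and Ighv1-86, the most distal member, was the first outside it, at 1120 bp with a fold of 6.01. Ighv1-50 lay at 1.43 kb, with a fold of 5.87.

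Distal peaks away from segments were also on the promoter side. Between the outermost members, 24 peaks had a distal member as their nearest, and 16 of them lay over 1 kb from any segment. All 16 were on the promoter side of the nearest member, at 1.43 to 27.2 kb from it. Of these, 7 fell 3.48 to 3.79 kb from the promoter end, or 3.77 to 4.08 kb from the signal end, a band picked out after the values were seen. Their nearest members were Ighv1-7, Ighv1-9, Ighv1-14, Ighv1-46, Ighv1-70, Ighv1-78 and Ighv1-83. The 1 above Ighv1-70 lay 17 bp from the microRNA gene Mir6388. The fold was 11.4 at the peak above Ighv1-7 and 5.82 above Ighv1-9, and the lowest of the 7 was 2.84, above Ighv1-46. All members of family 1 are related copies, so peaks at like distances need not be independent.

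**Figure D4:**
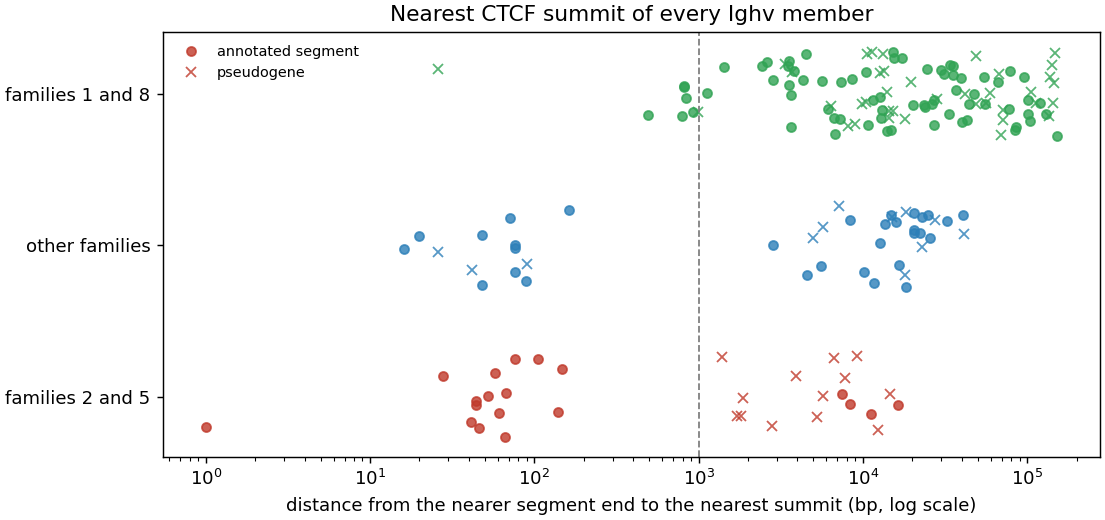
Distance from the nearer segment end to the nearest summit in bp (horizontal axis, log scale, dashed line at the 1 kb limit) for each of the 183 members, circles for V segments and crosses for pseudogenes, in 3 rows by family group. Members of families 2 and 5 form a group near the segment end and a group over 1 kb, and no member of those families lies between 147 bp and 1.40 kb.

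Long stretches of the distal part had no peak. The longest gap between neighbouring summits, 313 kb from 114668598 to 114981680, held 33 members, all of family 1 and 18 of them pseudogenes. The next, 205 kb from 115209325 to 115414200, held 10 members. The longest run of consecutive members without a summit was 49, all those between Ighv1-12 and Ighv1-55. How well reads can be placed among these related copies was not tested. The nearest summit was over 100 kb away for 14 members, all distal, and the farthest was 152 kb, at Ighv1-31. Proximal members without a summit had one at a median of 6.67 kb, middle members at 17.3 kb and distal members at 21.9 kb.

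Within 300 kb of the outermost members (113272929 to 116309954) lay 66 peaks, or 21.7 per Mb. Chromosome 12 as a whole had 17.9 per Mb, and the median of 782 windows of the same length along the autosomes was 18.1 (quartiles 9.22 and 27.9). The number of peaks was thus within the middle range of the autosomes. Many of them lay at segments. Between the outermost members 36 of 55 summits (65.5%) lay within 1 kb of a segment end, while such windows cover 17.1% of that stretch. By nearest member this was 15 of 15 peaks in the proximal families, 13 of 16 in the middle families and 8 of 24 in the distal families. The cover of such windows was not computed for each family group, so these counts have no cover of their own to be set against. The locus median fold was 6.01 (2.45 to 16.6), against 6.82 for all peaks, and 7 of the 66 (10.6%) reached a fold of 10, against 19.6% of the whole list.

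The 5 strongest locus peaks were those at Ighv5-17, Ighv1-65 and Ighv2-6-8, the peak 3.48 kb above Ighv1-7 (summit 114542268, fold 11.4), and a peak 12.3 kb above Ighv12-3 (summit 114379149, fold 10.5). Leaving out Ighv members, the annotated gene nearest to the last was the microRNA gene Mir7094-1, 90.3 kb away. The other middle peaks away from segments were 5.60 kb from Ighv9-3 (fold 7.77) and 2.85 kb from Ighv3-3 (fold 6.78). None of these 3 was weaker than the middle median of 5.85.

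At the D-proximal edge a pair of peaks stood apart from the V segments. Their summits, at 113485291 and 113487874, are 2.58 kb apart, with folds of 6.01 and 8.48 and −log10 q of 13.3 and 65.2. The first lies 3.10 kb above Ighd1-1, a D segment, and the second 1.69 kb from Adam6b, a gene of the ADAM family that here lies above 18 of the 20 D segments and below Ighd3-1 and Ighd5-1. This is the stretch in which IGCR1, a regulatory element with a pair of CTCF sites that in B cell precursors keeps recombination from running early into the proximal V segments, has been described. The next summit is that of Ighv5-2, 90.6 kb on from the pair, measured to the segment. Adam6a had no summit within 1 kb; the nearest was 32.0 kb away.

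Below that pair the list held no peak as far as the constant genes reach. None of the 32 constant, J and D genes (8, 4 and 20) had a summit within 1 kb (0 of 32). Over all RefSeq genes of the autosomes and X the share was 24.3%. The 32 genes lie close together, most of them in 1 stretch without a peak, so they are not separate observations. A gap of 261 kb, from 113224416 to 113485291, held all the constant and J genes, Igha to Ighm and Ighj1 to Ighj4, and 18 of the 20 D segments. Its lower edge lay outside the 300 kb limit, in a group of 3 peaks 31.8 to 38.1 kb below Igha (113256204 to 113260236). Their folds were 12.6, 3.33 and 6.38 with −log10 q of 64.7, 29.8 and 56.0, and the pair of lower fold were 3702 and 3070 bp wide. The 3′ end of the heavy chain locus, past Igha, is known for a set of CTCF sites that bound it. Past the distal edge, 9 peaks followed Ighv1-86 within 300 kb. The first of these beyond its own was at 116028290, with a fold of 8.66, and a weak peak (fold 3.53) lay 57 bp from an end of Zfp386, a zinc-finger gene. Of 9 flanking genes examined (Mta1, Crip1, Crip2, Tmem121, Adam6a, Adam6b, Zfp386, Vipr2 and Ptprn2), 2 had a summit within 1 kb of an end. They were Zfp386 and Crip2, the latter at 93 bp with a fold of 7.01. Among all protein-coding genes of chromosome 12 the share was 41.2%. Summits deeper inside a gene are left out of this count. Mta1 held 3 such summits, Ptprn2 held 10 and Tmem121 held 1, with a fold of 17.6. Zfp386 also held 1, with a fold of 9.08. Crip2 held 3 summits between its ends, among them the 1 at 93 bp, and the strongest of the 3 had a fold of 11.5.

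Other antigen receptor loci gave different shares under the same count, listed side by side with no test. Among kappa light chain segments (Igkv, chromosome 6) 1 of 162 had a summit within 1 kb. Among T cell receptor alpha segments (Trav) 45 of 130 did (34.6%), and among T cell receptor beta segments (Trbv) 4 of 35 did (11.4%). The heavy chain share of 19.7% lay between the shares of these listed loci. Segments of the T cell receptor gamma and delta and lambda light chain loci (Trgv, Trdv and Iglv) were also planned but are not given. The list is in mm10 coordinates, a reference made from the C57BL/6J strain, and any loss of reads from the CAST chromosome in this variable locus was not tested.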

How the data were processed

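CTCF peaks of whole testis were taken from 1 list. Per the submitters' processing notes, BWA 0.7.12, MACS2 2.2.7 and mm10 were used; their roles are not given there. The list is described as merged while its peak names carry bio2, so whether 1 or both immunoprecipitated samples entered it is unsettled. Each peak carries 4 values deposited by the authors, of which the fold enrichment (a ratio at the summit) and the −log10 q were used, and the −log10 p and the score were not. Read depth is unknown, and values were compared only within the list.

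Gene positions came from RefSeq (GRCm38.p6, the coordinates of mm10), without strand. Genes starting below 3 Mb on an autosome or X were left out. A member had a summit when one lay within 1 kb of either end. Coordinates are 1-based. Counting was checked on planted summits (Python 3.11.15, pandas 2.3.3). The members, families and gene lists were chosen with earlier results of these data known. Values are given for the 12 members with the highest fold, the highest of each family, members near the limit, the outermost members, the 5 strongest peaks and the longest gap; others named were picked out after their values were seen. Planned motif counts were limited to 14 promoters of other genes in the locus, 2 of which held a CTCF core (AGGGGGC or AGGTGGC or AGAGGGC, either strand) against 22.8% of 32851 promoters; neither held a summit. Alternatives were the window, stricter peak sets, whole peak intervals, V segments only and other locus limits.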

Additional observations from a re-analysis of the deposited data

How the results depend on the processing

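Of 64 alternatives, 50 left counts within 1.5 times, shares within 41.8 to 66.9% and median folds within 10%. The share meant here is that of all 66 locus peaks with a summit at a segment, 54.5%. Its limits are an exact binomial 95% interval, which takes the peaks as independent. They served only as a yardstick and measure no spread. Restricting the list to its upper part by −log10 q (median or higher) left 17 members with a summit in place of 36 (8 proximal, 5 middle and 4 distal), 14 of them nearer the signal end, and 24 locus peaks, of which 70.8% lay at segments. Median fold was then 7.84 at segments, in place of 6.37, and 8.39 over the locus, in place of 6.01. With a fold of at least 5, 25 members had a summit, 7 of them middle members. Of the 25 summits 18 lay nearer the signal end, in place of 28 of 36. The median folds were then 7.21 at segments and 7.16 over the locus. Fewer peaks enter these settings by construction. A window of 500 bp left 2 distal members in place of 8, since the 6 promoter-side summits lie farther away. No paired analysis was possible because separate values for the samples are not in the table used, which also prevents any value without a given replicate. Weak sites lost to limited depth cannot be counted here.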
